A study of Mus musculus with 108 samples.

Results

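The nuclear genes for respiratory complexes II, III, IV and V and for cytochrome c were followed in liver RNA. They were taken as every gene symbol that starts with Sdha, Sdhb, Sdhc, Sdhd, Uqcr, Cox4, Cox5, Cox6, Cox7, Cox8, Cyc1, Cycs or Atp5 and that stands in all 3 expression tables, with the most abundant transcript kept for each symbol. This gave 49 of 25125 symbols, of which 4 belong to complex II, 9 to complex III, 1 is cytochrome c, 18 belong to complex IV and 17 to complex V. The rule reads symbols, not measured differences. The wild-type male mice were C57BL/6J (B6) or 129S1/SvImJ (129), fed Normal Chow (chow) or the high fat and sucrose diet, D12492i (HFD). Livers came from 6 zeitgeber times (ZT2, ZT6, ZT10, ZT14, ZT18 and ZT22, in hours after lights on), with 3 libraries at each time, so that each of the 4 wild-type sets held 18 libraries. A further 18 libraries came from male 129S1/SvImJ mice with the genotype Errg-Cre on HFD. The last 18 came from male mice with the genotype Esrrg LKO on HFD, described as a hepatocyte-specific knockout of Esrrg, with the strain given as B6S1/SvImJ in one label and as B6 in another. Their titles say diet-induced obesity, and the columns of their table carry the name ErrgCre, so the genotype given here is that of the sample labels. The promoter that drove Cre is not given in the labels. They also do not say that replicates were separate mice, and each p-value below then covers only library-to-library spread, which may be technical.

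The respiratory chain passes electrons from NADH and succinate to oxygen. Complex II (succinate dehydrogenase) takes them from succinate, complex III (the cytochrome bc1 complex) hands them to cytochrome c, and complex IV (cytochrome c oxidase) gives them to oxygen. ATP synthase, complex V, makes ATP from the proton gradient. In liver this chain serves fatty acid oxidation, gluconeogenesis and urea synthesis. The nuclear receptors of the estrogen-related receptor (ERR) group, Esrra and Esrrg among them, their coactivator Ppargc1a and the factor NRF1 are known regulators of many of these genes.

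ATP synthase subunit c, which forms the rotating ring, is coded by 3 genes whose mature proteins are the same, Atp5g1, Atp5g2 and Atp5g3, and with diet in B6 they were called in opposite directions. The 250 bases before the start site were searched on both strands for the NRF1 motif (the 10 letters in capitals in the Atp5g2 line), its looser form with any base at the 2 middle places, the ERR element TCAAGGTCA and its shorter form AAGGTCA, where each short or loose form also counts the full one. RefSeq promoters of GRCm38.p6 were matched for 37 of the 49 genes. For these the promoter nearest to the start of the transcript used was taken, and for the comparison the first listed promoter of each gene, expressed or not. The 2 shares below thus rest on unlike choices. The promoter start lay away from the transcript start for Atp5f1 (985 bases), Cox6b2 (192), Atp5g1 (63) and Atp5j2 (51). The NRF1 motif stood in 3 of the 37 (8.11%, against 0.781% of 27025 promoters), its looser form in 6 (16.2% against 5.09%), TCAAGGTCA in 1 (2.70% against 0.366%) and AAGGTCA in 2 (5.41% against 4.05%). The stretches below, each 5′ to 3′ on the gene's strand (the minus strand in every case) with the motif in capitals, are shown for subunit c, for the other genes with the full NRF1 motif, and for Sdhd, which changed with diet in 129. Atp5g2, at chr15:102671060-102671109, carried the NRF1 motif with its first base 42 bases before the start site. Atp5g3, at chr2:73911350-73911398, carried the ERR element on the opposite strand, so that it reads TGACCTTGA. Atp5k, at chr5:108434420-108434469, and Cox6a1, at chr5:115349091-115349140, carried the full NRF1 motif, and Sdhd, at chr9:50603899-50603948, carried the looser form.
Atp5g2: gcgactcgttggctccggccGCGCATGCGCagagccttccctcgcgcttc
Atp5g3: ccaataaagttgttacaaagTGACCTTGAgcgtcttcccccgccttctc
Atp5k: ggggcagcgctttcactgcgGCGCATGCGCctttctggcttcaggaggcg
Cox6a1: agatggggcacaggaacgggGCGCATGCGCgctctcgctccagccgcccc
Sdhd: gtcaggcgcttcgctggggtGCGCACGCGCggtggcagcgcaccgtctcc

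The matched window of Atp5g1 held none of the 4 motifs. The other genes with the looser NRF1 form were Atp5h and Sdha, and the other gene with AAGGTCA was Atp5l. A match is a stretch of letters and was not tested as a binding site.

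The values analysed were the authors' quantile-normalised expression values per transcript (signal), and differences are of log2(value + 1), which understates the change of genes with low values. A gene was tested where its mean over a table was at least 10, and a gene was called where the Benjamini-Hochberg adjusted p of limma, over all genes tested in that table, was below 0.05. Of the 49 genes, 42 passed this minimum in the wild-type table, 43 in the Errg-Cre table and 41 in the Esrrg LKO table. In liver bulk RNA, fewer cells of a type and less RNA per cell cannot be told apart. All 9 hepatocyte markers found in the tables were at a mean of 10 or more in each set. In the wild-type sets the 6 skeletal and heart muscle markers were all below 10, and 4 of 5 adipocyte markers (Adipoq, Plin1, Lep and Ucp1) were under 1. The other adipocyte marker, Cfd, was called higher on HFD in B6 (4.66 log2 units), and the sum of the 5 had a median of 3.17 in B6 chow and 72.8 in B6 HFD.

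Some libraries stood apart. B6 HFD at ZT22 replicate 3 had a summed neutrophil marker value of 14795, against 0.009 to 21.4 in the other 71 wild-type libraries, a Saa1 value of 110328 against 68.1 to 9658, and a summed hepatocyte marker value of 152550 against 310373 to 1094070. Its 42 tested respiratory genes averaged 0.67 below their means (log2 deviation -0.67), while the other B6 HFD libraries lay between -0.14 and 0.43. The lowest of all wild-type libraries was B6 chow at ZT14 replicate 3, with a deviation of -1.09. In that library 14.8% of tested genes were under a value of 1. Esrrg LKO at ZT14 replicate 1 had the highest neutrophil (676) and erythroid (16164) marker sums of its set. Values in B6 chow also leaned on transcript GC content, with a mean slope of -0.43 ± 0.45 log2 units per 10 points of GC (SD, n = 18). The slope averaged 0.18 ± 0.14 for B6 on HFD, and for 129 it averaged 0.11 ± 0.56 on chow and 0.14 ± 0.16 on HFD. Mir6236, a microRNA record that overlaps ribosomal RNA sequence, ran from 32.8 to 1171 in B6 chow and from 915 to 91012 on HFD. Its range in 129 was 27.7 to 61431 on chow and 294 to 4030 on HFD. Results that touch these measures are therefore also given after a correction of each library for transcript GC and length, and with Mir6236 as a covariate.

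Genes were compared with each other only per kilobase of transcript. In 129 HFD, the set with the smallest spread between libraries, the catalytic beta subunit of ATP synthase, Atp5b, had the highest level of the 49 at 3520 ± 211 signal per kb (SD, n = 18). Cox6b1, a complex IV subunit that faces cytochrome c, followed at 2114 ± 293, and the alpha subunit Atp5a1 stood at 2072 ± 124, within the spread of Cox6b1. Atp5g3 (1733 ± 164), Cox4i1 (1680 ± 279), the complex III hinge protein Uqcrh (1654 ± 140) and Uqcrb (1547 ± 189) came next and also overlapped each other. Cytochrome c, Cycs, was far lower at 180 ± 19.7, and among tested genes Atp5g2 was the lowest at 76.6 ± 20.3. The 4 succinate dehydrogenase subunits ran from 555 for the membrane anchor Sdhc to 1073 for the flavoprotein Sdha. Levels per kb rest on transcript length alone, and reads shared with processed pseudogenes, which several of these genes have, could not be separated here.

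**Figure D1:**
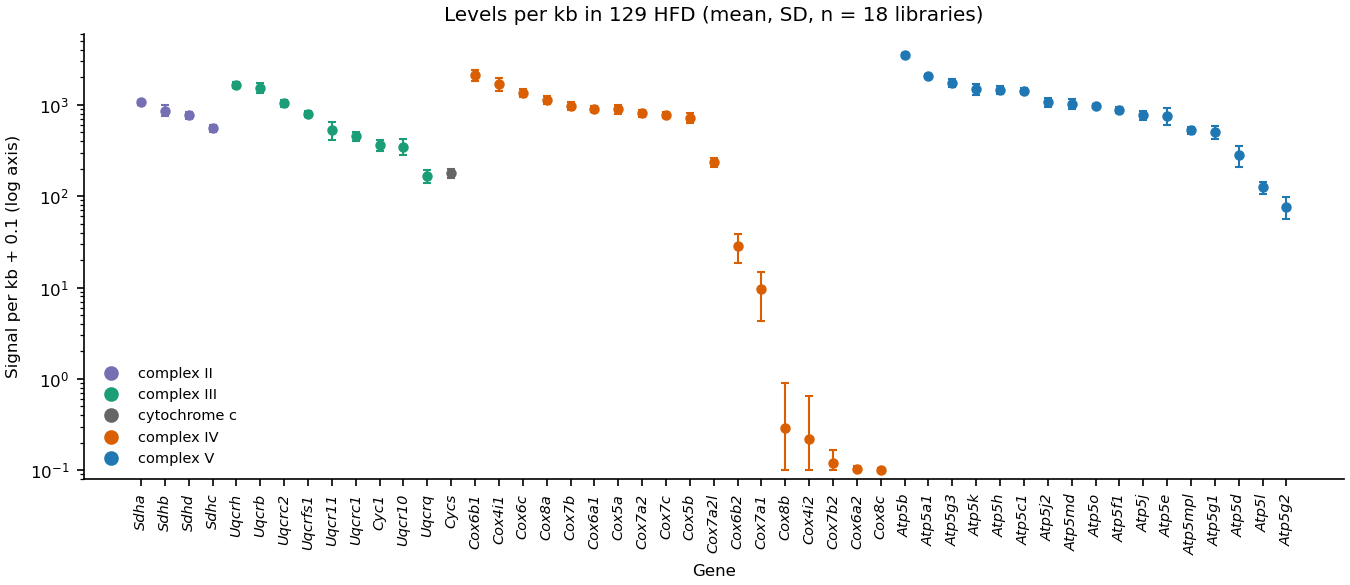
Mean signal per kilobase of transcript, plus 0.1, on a log axis for the 49 genes in 129 HFD, grouped by complex, with bars of SD over 18 libraries. Atp5b is the highest at 3520, and the muscle, lung and testis isoforms of complex IV lie far below the liver isoforms.

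Complex IV has tissue isoforms, and the liver forms carried nearly all of the signal. Cox4i1 stood at 1680 signal per kb in 129 HFD and its partner Cox4i2, known from lung, at 0.117. Cox6a1 was at 903 and the muscle isoform Cox6a2 at 0.00289. Cox7a2 was at 805 and the muscle isoform Cox7a1 at 9.45. Cox7b was at 982 against 0.0198 for Cox7b2, and Cox8a was at 1137 against 0.193 for the muscle isoform Cox8b and 0.00165 for Cox8c. These minor isoforms, together with Cox6b2, are the 7 genes that did not pass the minimum in the wild-type table. Cox4i2, Cox6a2, Cox7b2, Cox8b and Cox8c had a median of 0.0055 or less in each wild-type set.

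Cox6b2, the testis isoform of Cox6b1, was the exception among them, because it differed between the strains. It ran from 0 to 13.5 with a median of 0.007 in B6 chow and from 0 to 4.18 with a median of 0 in B6 HFD. The 13.5 was that of B6 chow at ZT14 replicate 3, and the next highest value in B6 chow was 1.31. In 129 chow Cox6b2 ran from 1.15 to 28.6 with a median of 9.30. In 129 HFD it ran from 5.90 to 21.2 with a median of 12.4, so that on HFD the strains did not overlap. With no minimum on the mean (25125 genes, limma), 129 was above B6 by 3.07 ± 0.26 log2 units on chow (SE, adjusted p = 1.39e-14) and by 3.55 ± 0.26 on HFD (adjusted p = 5.78e-17). In Errg-Cre, also of the 129 strain, it ran from 16.3 to 54.7, and in Esrrg LKO from 0 to 2.09, in tables that were normalised separately. Reads were aligned to mm10, the genome of B6, so reads with 129 variants may be lost, which would lower 129 values.

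In 129 livers, HFD lowered a small set of genes from complexes II to V and raised fewer. Of the 42 tested genes, 8 fell and 2 rose. The falls were 19% of the 42, against 7.45% of all tested genes, and the rises 4.76%, against 10.9%. In either direction 23.8% of the 42 were called, against 2071 of all 11287 tested genes. The median difference of the 42 was -0.02 on the log2 scale and that of all genes 0.04. By complex, the fallen genes were Sdhd of complex II, Uqcrb of complex III, Cox5a, Cox6c, Cox7b and Cox7c of complex IV, and Atp5f1 and Atp5j of complex V. The 2 that rose were Cox7a2 and Atp5e. Without the libraries of replicate 2, 0 rose and 4 fell (3.04% and 1.89% of all genes). The 2 became 4 when 129 chow at ZT2 replicate 1 or 129 chow at ZT6 replicate 3 was left out.

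Cox7c (chr13:86044798-86046795, mm10), a small structural subunit of complex IV, had the largest fall. It ran from 357 to 579 in 129 chow (median 458) and from 295 to 394 in 129 HFD (median 344). The sets overlapped, with 10 of 18 HFD libraries below every chow library. The difference was -0.41 ± 0.08 log2 units (SE, limma adjusted p = 7.68e-05), with the same sign at all 6 times. Cox6c (chr15:35931976-35938246), another small subunit of the same complex, ran from 720.05 to 1049 on chow (median 803) and from 581 to 805 on HFD (median 659), with 13 HFD libraries below every chow library. It fell by 0.35 ± 0.06 (adjusted p = 3.06e-05).

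Sdhd (chr9:50596340-50603849), the small membrane anchor of succinate dehydrogenase that binds ubiquinone, ran from 1004 to 1477 on chow (median 1215) and from 828 to 1131 on HFD (median 979). It fell by 0.30 ± 0.06 (limma adjusted p = 0.000197), with 11 HFD libraries below every chow library. The other 3 subunits of complex II had no call, with differences of -0.05 for Sdha, 0.21 for Sdhb and 0.23 for Sdhc (adjusted p = 0.0681). Within complex II the fall thus passed the test in the anchor Sdhd alone, while the difference between subunits was not tested. Uqcrb, which binds ubiquinone in complex III, fell by 0.35 ± 0.09 (adjusted p = 0.00422), from a median of 1010.2 (751 to 1797) to 853 (636 to 1014). Atp5f1, the b subunit of the ATP synthase stalk, fell by 0.31 ± 0.06 (adjusted p = 0.000168), from a median of 1882 to 1582. Cox7b fell by 0.28 ± 0.07 (adjusted p = 0.00479). Cox5a and Atp5j, at -0.21 (adjusted p = 0.0489) and -0.19 (adjusted p = 0.0133), were called without the same sign at all 6 times.

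Atp5e (chr2:174461075-174464101), the epsilon subunit of the ATP synthase central stalk, was the clearest rise in 129. It ran from 107 to 378 on chow (median 220.4) and from 242 to 439 on HFD (median 281), with 4 HFD libraries above every chow library. The difference was 0.45 ± 0.12 (limma adjusted p = 0.00485), higher at all 6 times. Cox7a2 rose by 0.36 ± 0.11 (adjusted p = 0.0107), also at all 6 times, and this call was lost without ZT22 (0.28, adjusted p = 0.116). All 10 calls in 129 kept their sign and passed the threshold after the GC and length correction and with Mir6236 as a covariate. After the correction 15 genes were called lower and 2 higher (10.9% and 10.4% of all genes), and with Mir6236 as a covariate 9 were lower and 8 higher (9.21% and 13.9%).

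**Figure D2:**
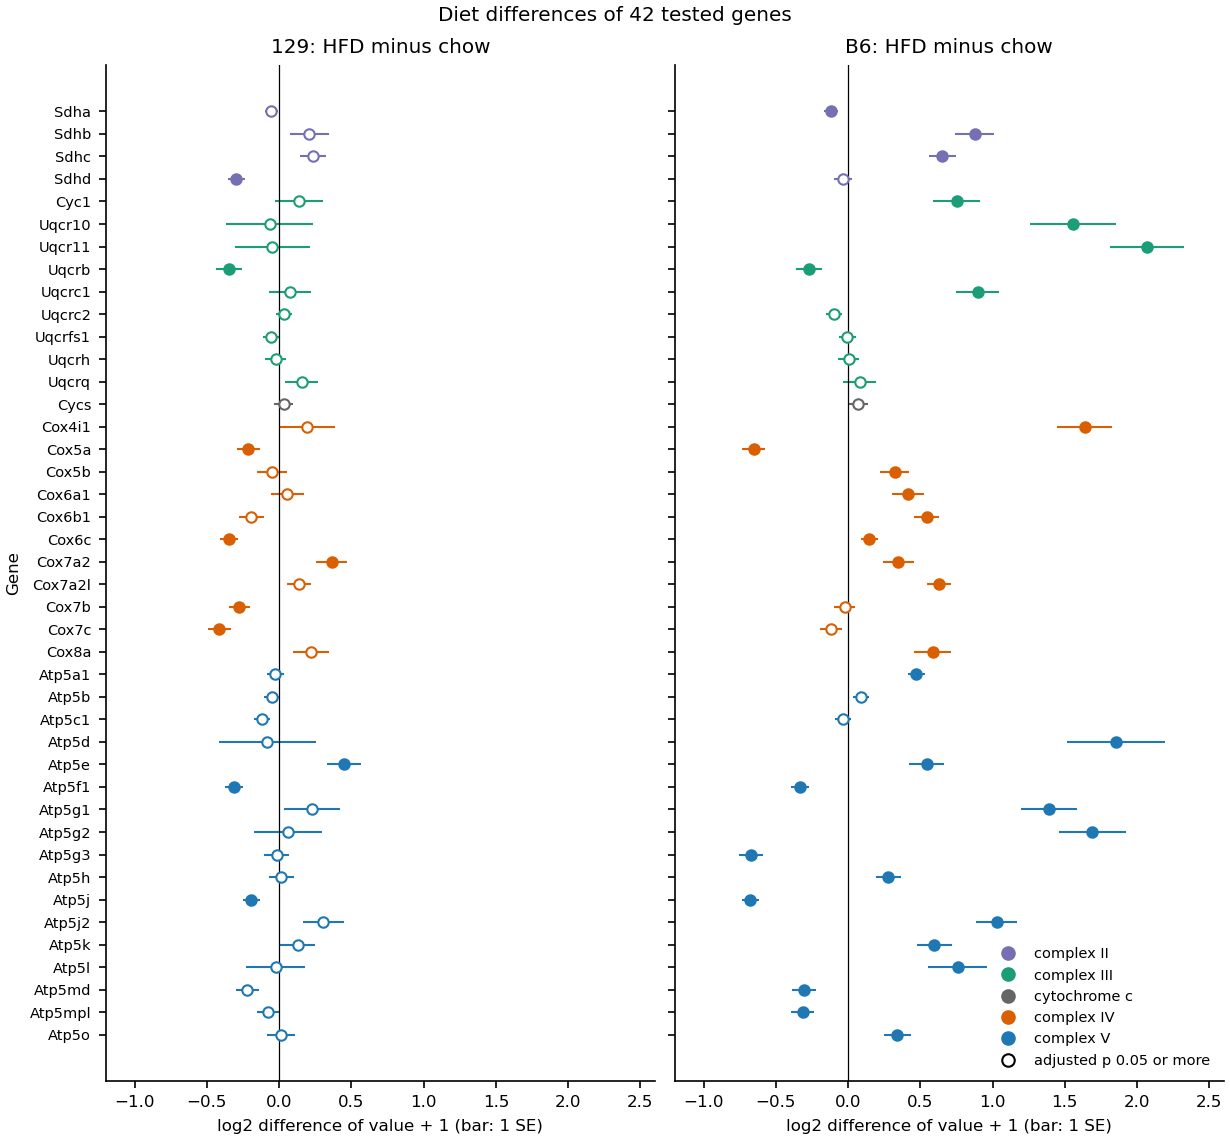
Difference HFD minus chow in log2(value + 1) with SE for the 42 tested genes in 129 (left) and B6 (right), by complex, with filled points for limma adjusted p below 0.05. In 129 the called genes lie between -0.41 and 0.45, and in B6 between -0.68 and 2.07.

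In B6 livers, HFD moved the genes further and mostly up. Of the 42, 24 rose and 8 fell, which is 76.2% called, and the median difference was 0.33 against -0.06 over all genes. Of all tested genes 60.2% were called, 27.5% up and 32.7% down, so that a call in this comparison was common. After the GC and length correction 19 rose and 7 fell (24.6% and 21.5% of all genes) with a median of 0.10 against 0.015, and 21 of the 32 calls were kept with their sign. The median was 0.56 for the 22 genes with more than 50% GC and -0.02 for the 19 with less. The rises were 2 of 4 tested genes in complex II, 4 of 9 in complex III, 8 of 11 in complex IV and 10 of 17 in complex V, and the falls were 1, 1, 1 and 5. Cycs had no call (0.07, adjusted p = 0.378).

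The largest rise was in Uqcr11 (chr10:80402997-80406821), a small subunit of complex III. It ran from 8.01 to 282 on chow (median 102) and from 163 to 666 on HFD (median 381), with 16 of 18 HFD libraries above every chow library. The 8.01 was that of B6 chow at ZT14 replicate 3, and the next lowest chow value was 23.5. The difference was 2.07 ± 0.26 log2 units (SE, limma adjusted p = 2.15e-09), and 1.21 after the GC and length correction. Cox4i1 (chr8:120668320-120674209), the regulatory subunit of complex IV that binds ATP, ran from 119 to 1165 on chow (median 478) and from 803 to 1690.2 on HFD (median 1524). It rose by 1.64 ± 0.19 (adjusted p = 4.75e-10), with 16 HFD libraries above every chow library, and by 0.88 after the correction. Both genes are rich in GC, at 58.9% and 58.0% of the transcript.

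Cox7a2l (chr17:83501917-83514333) was a rise that hardly moved with that correction. It ran from 188 to 391 on B6 chow (median 279.5) and from 307 to 527 on B6 HFD (median 406), with 12 HFD libraries above every chow library. It rose by 0.63 ± 0.08 (limma adjusted p = 8.28e-09) and by 0.58 after the correction. In 129 its difference with diet was 0.14 (adjusted p = 0.261). Sdhb, the iron-sulfur subunit of complex II, rose by 0.88 ± 0.13 (adjusted p = 2.04e-07), or 0.40 after the correction. Sdhc rose by 0.65 ± 0.09 (adjusted p = 4.2e-08), or 0.69 after the correction. Cyc1, the haem subunit of complex III that reduces cytochrome c, rose by 0.75 ± 0.17 (adjusted p = 0.000113), or 0.25. Sdhd had no call in B6 (-0.04), and the fall of Sdha (-0.12, adjusted p = 0.0219) was lost without B6 HFD at ZT10 replicate 1 or without B6 HFD at ZT22 replicate 3, and its direction turned after the correction (0.020).

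Larger rises with wider spread were seen in Atp5d (1.85 ± 0.34), the delta subunit of the central stalk, and in Uqcr10 (1.56 ± 0.30), whose most abundant record here is a non-coding transcript. Cox6b1 rose by 0.54 ± 0.09 and Cox6a1 by 0.41 ± 0.11, both with a lower value at ZT22. Cox6a1 and Cox8a (0.59 ± 0.13) turned to -0.42 and -0.23 after the GC and length correction, and Atp5o (0.34) turned to -0.08, so that their direction in B6 depends on that step. Cox7a2 rose by 0.35 ± 0.11 (adjusted p = 0.00403), or 0.09 (adjusted p = 0.303) after the correction.

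Falls in B6 were led by Atp5j, Atp5g3 and Cox5a. Cox5a (chr9:57521232-57532426), a subunit on the matrix side of complex IV, ran from 695 to 1078 on chow (median 899) and from 319 to 751 on HFD (median 593), with 17 of 18 HFD libraries below every chow library. It fell by 0.65 ± 0.08 (limma adjusted p = 1.02e-09). Atp5j (chr16:84827871-84835625), coupling factor 6 of the ATP synthase stalk, ran from 584 to 1178 on chow (median 849) and from 392 to 632 on HFD (median 557). It fell by 0.68 ± 0.06 (adjusted p = 5.4e-14), with 12 HFD libraries below every chow library. Both were lower at all 6 times, and their falls after the correction were -0.69 and -0.88. Atp5f1 (-0.33 ± 0.06) and Atp5mpl (-0.31 ± 0.08) were also lower at all 6 times.

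Uqcrb, Cox5a, Atp5f1 and Atp5j fell with HFD in both strains, and Cox7a2 and Atp5e rose in both. Cox6c was called in opposite directions, with a rise of 0.15 ± 0.06 in B6 (limma adjusted p = 0.0352) and a fall in 129. In B6, Mir6236 and diet nearly coincide and cannot be told apart. With Mir6236 as a covariate 0 genes rose and 1 fell, Atp5j at -0.29 (adjusted p = 0.022), against 2.05% and 2.96% of all genes, so that the loss was shared by the whole table. The median SE of the 42 was 0.15 with the covariate and 0.09 without.

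**Figure D3:**
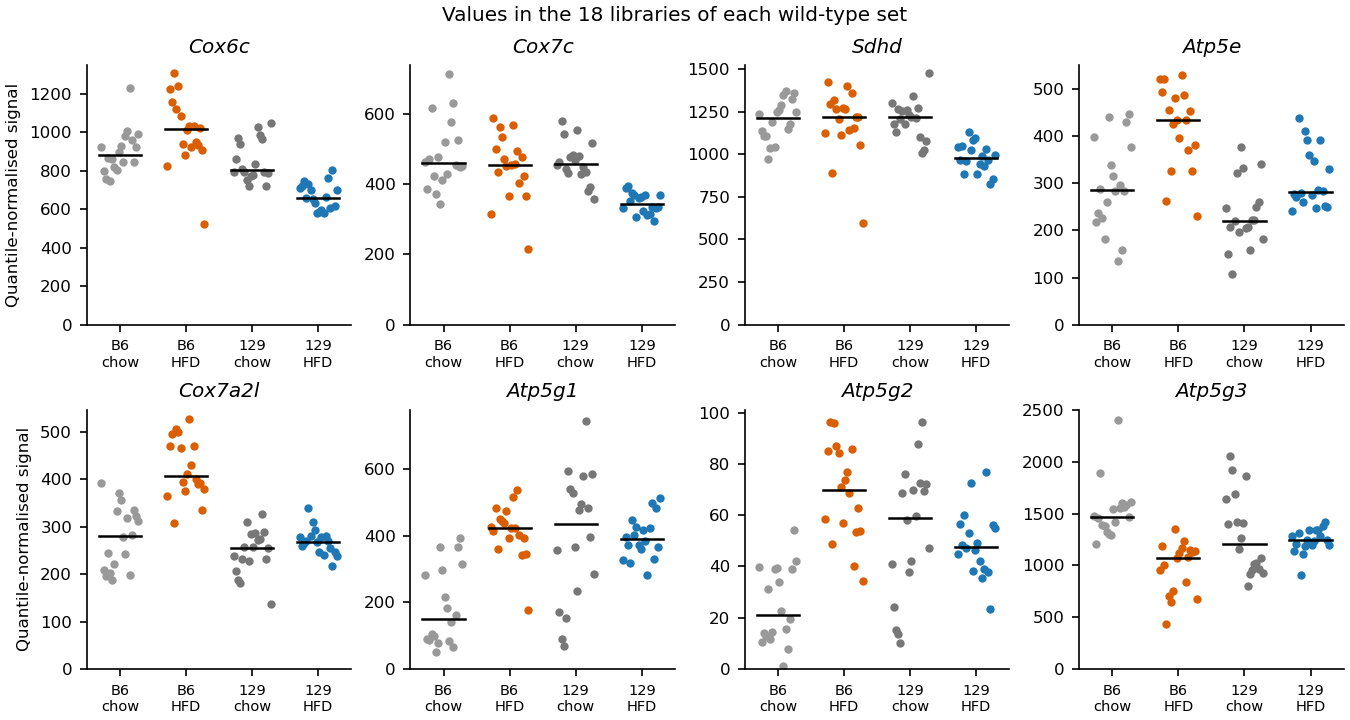
Signal of 8 genes in each of the 18 libraries of the 4 wild-type sets, points ordered by time of day from left to right within a set, with a line at the median. Cox6c, Cox7c and Sdhd are lower in 129 HFD than in 129 chow, and Cox7a2l in B6 HFD has a median of 406 against 188 to 391 in the B6 chow libraries.

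The 3 subunit c genes moved apart in B6. Atp5g1 (chr11:96072793-96075694) ran from 50.8 to 393 on B6 chow (median 151) and from 178 to 536 on B6 HFD (median 423), and rose by 1.39 ± 0.19 log2 units (SE, limma adjusted p = 3.25e-08). Atp5g2 (chr15:102662868-102671047) ran from 1.10 to 54.3 on chow (median 21.1) and from 34.3 to 96.4 on HFD (median 69.9), and rose by 1.69 ± 0.23 (adjusted p = 2.69e-08). Atp5g3 (chr2:73908447-73911326), the most abundant of the 3, ran from 1208 to 2406 on chow (median 1471) and from 429.6 to 1354 on HFD (median 1075), and fell by 0.67 ± 0.08 (adjusted p = 2.14e-09). For Atp5g1 and Atp5g2, 13 HFD libraries lay above every chow library, and for Atp5g3, 16 lay below. After the GC and length correction the differences were 1.5, 1.03 and -0.82.

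Per kilobase, the summed signal of the 3 genes was 2403 ± 378 in B6 chow and 1996 ± 389 in B6 HFD (SD, n = 18). Atp5g3 made up 88.6% ± 6.57 of that sum in B6 chow and 67.8% ± 7.40 in B6 HFD. Its highest share on HFD, 77.2%, was below its lowest on chow, 77.6%, so the sets did not overlap. Atp5g1 went from 9.76% ± 5.75 to 26.7% ± 6.00 and Atp5g2 from 1.63% ± 0.907 to 5.50% ± 1.68. In 129 the shares were near each other on the 2 diets, with Atp5g3 at 74.6% ± 12.8 on chow and 75.0% ± 3.94 on HFD. The shares in Errg-Cre were 59.2% for Atp5g3, 30.1% for Atp5g1 and 10.8% for Atp5g2, and in Esrrg LKO 82.5%, 13.9% and 3.62%, as values of separately normalised tables. The difference of the diet response between strains, 129 minus B6, was -1.16 ± 0.27 for Atp5g1 (limma adjusted p = 0.00119), -1.63 ± 0.33 for Atp5g2 (adjusted p = 0.00026) and 0.66 ± 0.12 for Atp5g3 (adjusted p = 5.69e-05). With Mir6236 as a covariate these were 0.30, 0.05 and -0.08, with no call.

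The diet response differed between the strains in 23 of the 42 genes, lower in 129 for 20 and higher for 3. This was 54.8% of the 42, against 34.4% of all tested genes (20.1% higher), and the median was -0.31 against 0.10. Of the 20, 18 had risen in B6, and the other two were Sdhd and Cox7c. The 3 with a higher response in 129, Cox5a, Atp5g3 and Atp5j, had fallen in B6. Without the libraries of replicate 2 the 20 became 6 (4.96% of all genes), with 3 higher. The largest differences were -2.12 ± 0.36 for Uqcr11 (limma adjusted p = 2.69e-05), -1.94 ± 0.48 for Atp5d, -1.63 ± 0.42 for Uqcr10 and -1.44 ± 0.27 for Cox4i1 (adjusted p = 0.000103). That of Cox7a2l was -0.49 ± 0.12 (adjusted p = 0.00134) and that of Cox6c -0.49 ± 0.09 (adjusted p = 4.04e-05). Of the 23, 21 kept the call and sign after the GC and length correction and 0 with Mir6236 as a covariate, where 0.124% of all genes were called.

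Between the strains on chow, 18 of the 42 genes were higher in 129 and 6 lower, 57.1% called against 52.9% of all tested genes (25.4% higher and 27.5% lower). The median was 0.16 against -0.01. Complex III had 5 of 9 genes higher and none lower, and complex V had 8 of 17 higher and 4 lower. Cox6b1 was the clearest, running from 388 to 1049 in B6 chow (median 678) and from 701 to 1489 in 129 chow (median 1207), with 13 of 18 129 libraries above every B6 library. Its difference was 0.77 ± 0.09 log2 units (SE, limma adjusted p = 1.43e-10), 0.72 after the GC and length correction and 0.40 with Mir6236 as a covariate (adjusted p = 0.00265). Uqcr11 (1.31 ± 0.26), Atp5g2 (1.16 ± 0.23), Atp5g1 (1.12 ± 0.19), Sdhb (0.79 ± 0.13) and Atp5a1 (0.25 ± 0.06) were also higher in 129 at all 6 times.

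Lower in 129 on chow were Cox5a, Atp5e, Cox7a2, Atp5mpl, Atp5g3 and Atp5j. Atp5e was lower by -0.32 ± 0.12 (limma adjusted p = 0.0192) at all 6 times, from a median of 286 in B6 to 220.4 in 129, and passed neither without 129 chow at ZT6 replicate 1 nor without ZT22. Atp5j was lower by -0.22 ± 0.06 (adjusted p = 0.00162), also at all 6 times. With Mir6236 as a covariate 2 genes were called higher and 2 lower on chow (4.97% and 7.84% of all genes).

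On HFD the balance between strains was turned, with 11 genes lower in 129 and 4 higher, 35.7% called against 32.3% of all tested genes (13.3% lower and 19% higher). The median was -0.05 against 0.05, and without the libraries of replicate 2 the 11 became 3 (7.65% of all genes). Cox7a2l stood out among the 11. It ran from 307 to 527 in B6 HFD (median 406) and from 216 to 339 in 129 HFD (median 268), with 16 of 18 129 libraries below every B6 library. The difference was -0.65 ± 0.08 log2 units (SE, limma adjusted p = 5.85e-09), lower at all 6 times, -0.68 after the GC and length correction and -0.47 with Mir6236 as a covariate (adjusted p = 0.000117). On chow its strain difference was -0.16 (adjusted p = 0.109).

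Cox6c ran from 524 to 1310.5 in B6 HFD (median 1020.2) and from 581 to 805 in 129 HFD (median 659). The lowest B6 value was that of the library with the high neutrophil markers, and no 129 library lay below it. The difference was -0.57 ± 0.06 (limma adjusted p = 4.38e-11), lower at all 6 times, and -0.55 and -0.54 under the 2 corrections. Sdhd (-0.25 ± 0.06, adjusted p = 0.000639) kept its call under both corrections. Uqcr11 (-0.81 ± 0.26, adjusted p = 0.0114) and Atp5e (-0.42 ± 0.12, adjusted p = 0.00424) were lower at all 6 times and lost the call with Mir6236 as a covariate. Cox7c (-0.35 ± 0.08), Sdhc (-0.34 ± 0.09), Atp5a1 (-0.25 ± 0.06) and Uqcrb (-0.27 ± 0.09) were lower at 5 times, and of these Cox7c and Uqcrb kept the call with that covariate. The calls of Cox7a2 (-0.29) and Cox7b (-0.20) on HFD were lost when any of 6 and any of 15 single libraries was left out.

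Higher in 129 on HFD were Atp5g3, Uqcrq, Atp5j and Uqcrc2. Atp5g3 was higher by 0.39 ± 0.08 (limma adjusted p = 0.000178), or 0.07 with Mir6236 as a covariate (no call). Atp5j was higher by 0.27 ± 0.06 (adjusted p = 0.000223), with 13 libraries of 129 above every B6 library. Uqcrc2, a core subunit of complex III, was higher by 0.18 ± 0.06 (adjusted p = 0.0109). Uqcr11, Atp5a1, Atp5g3 and Atp5j were called in opposite directions between the strains on the 2 diets, Cox7a2 and Atp5e were lower in 129 on both, and Uqcrq was higher on both. As said for Cox6b2, reads with 129 variants may be lost on mm10, which would lower any gene or marker in 129. This was not tested. Uqcrfs1, Uqcrh, Cycs and Atp5c1 were called in none of the 5 comparisons of level.

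Markers of liver cell types moved in the same comparisons. Of 10 Kupffer cell markers 6 rose with HFD in each strain and 0 fell, and in 129 7 were lower than in B6 on chow and 8 on HFD, with 0 higher. Of all tested genes 27.5% rose and 32.7% fell with HFD in B6, and 10.9% rose and 7.45% fell in 129. The share of all genes lower in 129 was 27.5% on chow and 13.3% on HFD. Their summed value had a median of 1404 (824 to 2105) in B6 chow, 2063 (1213 to 5884) in B6 HFD, 913 (633 to 2522) in 129 chow and 1320 (914 to 2125) in 129 HFD. Of 6 tested stellate cell markers 5 rose with HFD in B6, and their sum had a median of 1137 (881 to 1487) on chow and 1942 (1525 to 2962) on HFD, against 1294 (1110 to 1595) and 1566 (1231 to 1723) in 129. In 129, 1 of the 6 rose with HFD and 1 fell, with a median difference of -0.32. On HFD 4 of the 6 were lower in 129 than in B6, with a median of -1.25. Of 9 hepatocyte markers 5 rose and 2 fell with HFD in B6 (median 0.71), while their sum had a median of 989040 on chow and 338001 on HFD. That sum rests largely on Alb. Its value was 863453 in each B6 chow library, and its median in B6 HFD was 176662. Quantile normalisation gave each library of a table the same set of values, so Alb moved between fixed steps. The lower sum on HFD is thus a change of rank and not a measured size of change. Of 7 sinusoidal endothelium markers 5 rose in B6. With Mir6236 as a covariate 0 Kupffer cell, 0 hepatocyte and 0 endothelium markers were called with diet in B6, and 2 stellate cell markers rose (2.05% of all genes). Under that covariate 7 Kupffer cell markers rose with HFD in 129 (13.9% of all genes). Lower in 129 than in B6 were 8 of them on chow (7.84% of all genes) and 6 on HFD (12.8%). The part of these markers in the differences of the respiratory genes was not tested.

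At single times the diet response in B6 was positive in median at ZT2, ZT6, ZT10, ZT14 and ZT18, with medians of the 42 genes of 0.38, 0.70, 0.23, 0.57 and 0.46. At ZT22 the median was -0.42, and 38 of the 42 genes were lower on HFD, 20 of them among the 24 called as higher over all times. All genes had medians between -0.14 and 0.05 at the 6 times. Much of the ZT22 value came with 1 library. Without B6 HFD at ZT22 replicate 3 the ZT22 median was -0.16, with 27 genes lower and 15 higher, and after the GC and length correction as well it was -0.06. Cox4i1, Uqcr11, Atp5g2 and Cox7a2l were higher on HFD at ZT22 as well, by 0.26, 0.30, 0.12 and 0.19. The mean GC slope of B6 chow was 0.03 at ZT22 and between -0.78 and -0.14 at the other times.

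In 129 the medians of the diet response were 0.22, 0.18, -0.13, -0.10, -0.15 and -0.06 from ZT2 to ZT22. At ZT2 and ZT6 28 genes were higher on HFD, and at ZT10 35 were lower. Mir6236 of 129 chow had means of 106 and 279 at ZT2 and ZT6 and of 49822 and 53230 at ZT18 and ZT22, and its part in this course was not tested apart from the covariate. Cox4i1 showed the swing, with 1.32 and 1.15 at ZT2 and ZT6 and -0.70 at ZT18, while Cox7c, Cox6c and Sdhd were lower on HFD at every time.

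**Figure D4:**
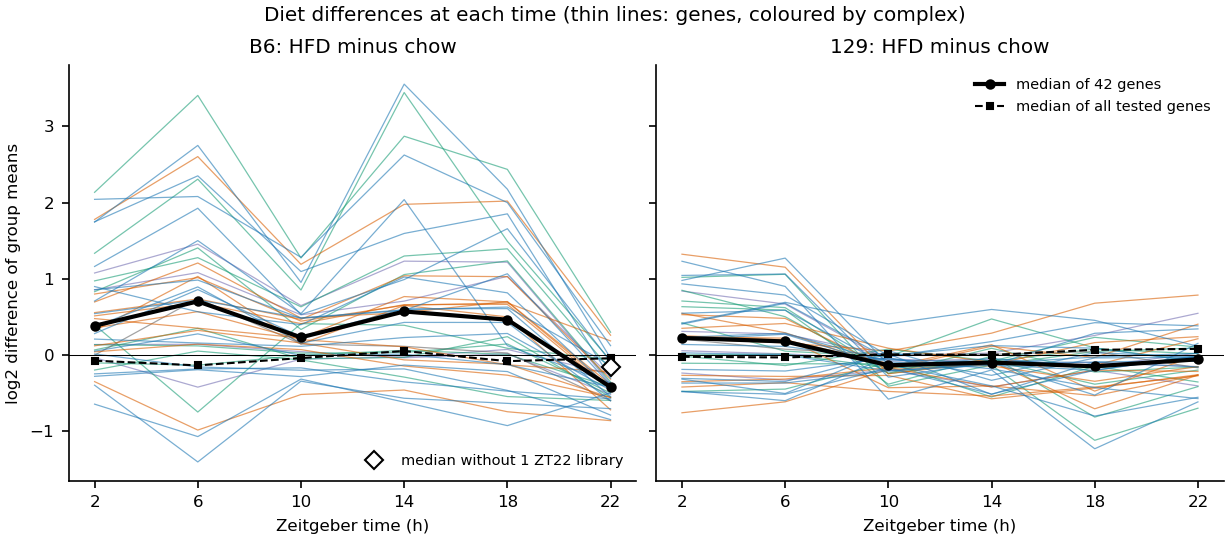
Difference HFD minus chow in log2(value + 1) at each zeitgeber time (hours) in B6 and 129, thin lines for the 42 genes coloured by complex, a thick line for their median and a dashed line for the median of all tested genes. The B6 median drops from 0.46 at ZT18 to -0.42 at ZT22, and the open diamond marks -0.16, its value without 1 library.

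A daily course was tested with a cosine of 24 h. In 129 chow 15 of the 42 genes passed the test (35.7%, against 47.8% of all tested genes). No gene of the 42 passed in B6 chow (background 6.16%), B6 HFD (4.08%) or 129 HFD (7.04%), where limma's unadjusted p was below 0.05 for 3, 6 and 0 genes. The change of the course with diet was called in 0 of 42 genes in B6 (0.0532% of all genes) and 0 in 129 (1.26%), with 10 and 7 at an unadjusted p below 0.05. With time as a factor of 6 levels in place of the cosine, 18 genes passed in B6 chow (25.8% of all genes) and 5 in B6 HFD (6.95%). With libraries weighted by their residual spread, 25 passed in B6 chow (30.1%) and 20 changed their course with diet in 129 (37.7%).

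The 15 genes of 129 chow peaked in opposite phases. Atp5mpl, a small ATP synthase subunit, had an amplitude of 0.47 ± 0.08 log2 units (SE) with a peak at ZT 6.29 (limma adjusted p = 2.52e-05). Cox5a (0.43 ± 0.09, peak 5.72), Cox7a2 (0.42 ± 0.11, peak 7.32), Atp5g3 (0.41 ± 0.09, peak 5.40) and Uqcrc2 (0.20 ± 0.06, peak 6.78) peaked in the same part of the light phase. Another 9 genes peaked between ZT15 and ZT20, among them Atp5d (1.18 ± 0.36, peak 17.1), Uqcr11 (0.99), Cox4i1 (0.93 ± 0.22, peak 16.8, adjusted p = 0.00185) and Atp5g2 (0.91). Cox7a2l peaked at ZT 13.95. Cox4i1 went from 467 ± 262 at ZT2 to 1765 ± 154 at ZT18 (SD, n = 3), while Cox5a went from 1027 ± 103 to 551 ± 133.

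Of the 15, 10 have a GC content above 50%. The mean GC slope of 129 chow went from -0.54 at ZT2 to 0.64 at ZT18, beside the change in Mir6236 given above. With Mir6236 as a covariate 2 of the 42 passed (14.8% of all genes), without the libraries of replicate 2 only 3 did (19.1%), and after the GC and length correction 21 did (35.6%). In 129 HFD the median amplitude of the 42 was 0.10, against 0.25 in 129 chow. Over all genes it was 0.18 in 129 HFD and 0.38 in 129 chow, also lower on HFD.

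In Errg-Cre 6 of 43 tested genes passed (14%, against 17.9% of all). These were Atp5d (amplitude 0.35), Uqcrq (0.34), Uqcrb (0.25 ± 0.05, peak at ZT 19.3, limma adjusted p = 0.00962), Atp5mpl (0.17), Atp5c1 and Atp5f1. None passed when the libraries of any 1 replicate number were left out. In Esrrg LKO 0 of 41 passed (6.09% of all), 1 at an unadjusted p below 0.05, and the median amplitude was 0.06 against 0.14 over all genes.

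**Figure D5:**
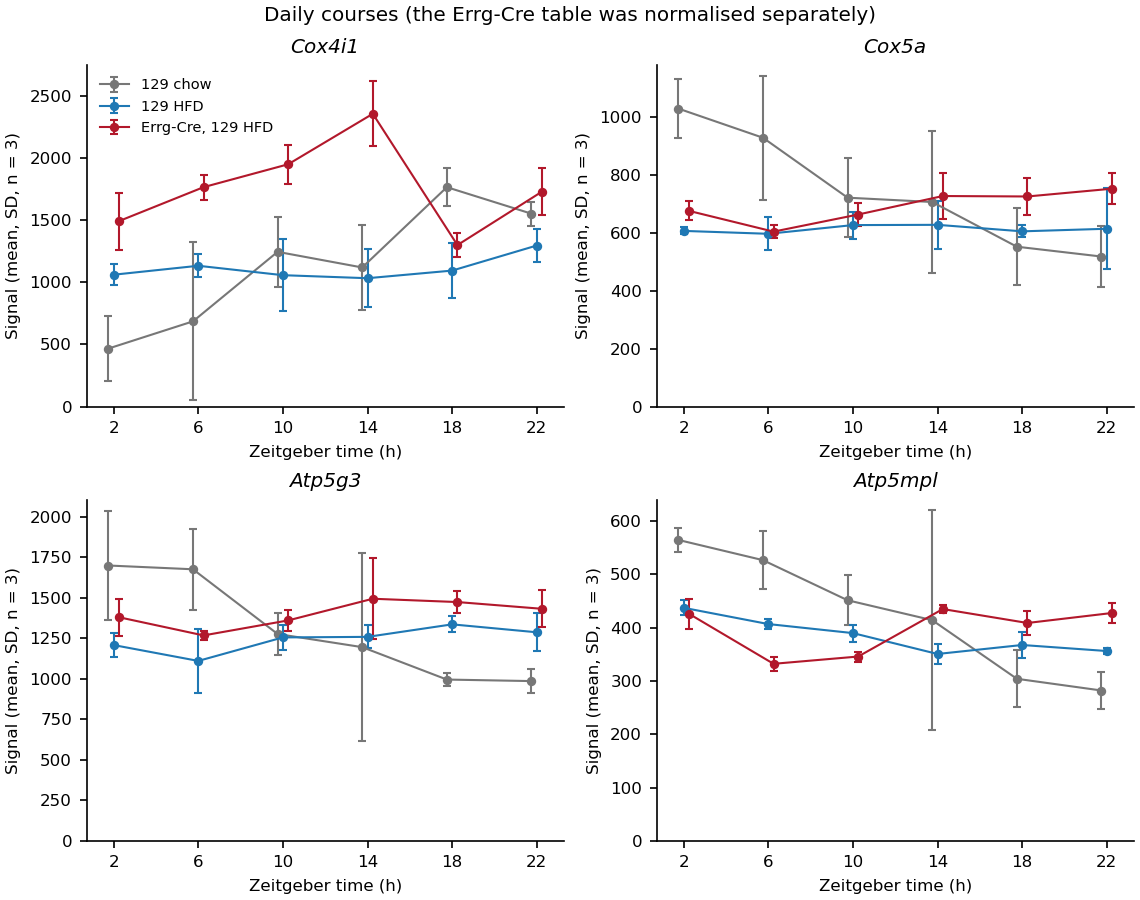
Mean signal with SD (n = 3 at each time) of Cox4i1, Cox5a, Atp5g3 and Atp5mpl at the 6 zeitgeber times (hours) in 129 chow, 129 HFD and Errg-Cre, the last from a separately normalised table. In 129 chow Cox4i1 rises to 1765 at ZT18 while Cox5a drops from 1027 at ZT2 to 551 at ZT18, while the change of course with diet in 129 was called for neither gene.

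The Errg-Cre and Esrrg LKO sets are given as values, since their control libraries were not analysed here and each table was normalised on its own. Esrrg itself had a median of 25.9 (8.23 to 62.0) in Errg-Cre and of 16.4 (7.64 to 39.4) in Esrrg LKO, and without controls these values check nothing about the deletion. Cox4i1 ran from 1203 to 2651 in Errg-Cre (median 1748) and from 1428 to 1702 in Esrrg LKO (median 1559). Cox7a2l ran from 360.5 to 616 (median 434) and from 157 to 270.3 (median 229). These ranges do not overlap for Cox7a2l and do for Cox4i1.

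Some genes were far apart between these tables. Cycs ran from 549 to 814 in Errg-Cre (median 685) and from 92.1 to 169 in Esrrg LKO (median 132). Atp5l, a membrane subunit of ATP synthase, ran from 421 to 719 (median 510.2) and from 1.23 to 9.31 (median 3.53), against medians of 57.5 to 91.4 in the wild-type sets. Strain, genotype and normalisation differ together here and cannot be told apart. The share of all genes whose ranges do not overlap between these tables is not given here.

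Related genes were counted for context. Of 45 tested complex I genes (Nduf) 19 rose and 13 fell with HFD in B6, and 1 rose and 7 fell in 129, with medians of 0.08 and 0.03. Cytosolic ribosomal proteins had medians close to those of the 42 for diet in B6 and for the difference of diet responses, but not for diet in 129. Of 89 tested, 56 rose and 12 fell with HFD in B6 (median 0.35), and the diet response was lower in 129 for 39 and higher for 10 (median -0.28). In 129, 10 of the 89 rose and 2 fell with HFD (median 0.11), while 2 of the 42 rose and 8 fell (median -0.02). Of 78 mitochondrial ribosomal proteins 34 rose and 20 fell in B6 (median 0.13). Of 36 assembly factors of complexes II to V, 8 rose and 13 fell in B6 (median -0.19), and 2 rose and 1 fell in 129 (median 0.03). Cox11, which delivers copper to complex IV, fell by 0.79 in B6 (limma adjusted p = 4.8e-07) and was 0.70 higher in 129 than in B6 on HFD (adjusted p = 9.03e-06). Sco2, another copper chaperone, rose by 1.23 in B6, or 0.42 after the GC and length correction, and was 0.97 higher in 129 on HFD. Atpif1, the inhibitor of ATP synthase, fell by 0.34 with HFD in 129 (adjusted p = 0.0481) and was lower in 129 by -0.51 on HFD (adjusted p = 0.000996).

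Of 13 tested regulators, 3 rose and 7 fell with HFD in B6 (27.5% and 32.7% of all genes). In 129, 1 rose and 4 fell (10.9% and 7.45%). Esrra rose by 1.62 ± 0.20 in B6 (limma adjusted p = 2.56e-09), or 0.71 after the GC and length correction, and had no call in 129 (-0.49, adjusted p = 0.0848), where it was called lower after the correction (-0.51, adjusted p = 0.00248). The difference between strains was -2.11 ± 0.29 (adjusted p = 7.9e-07). Ppargc1a fell in both strains, by 0.57 ± 0.14 in B6 (adjusted p = 0.000485) and by 0.48 ± 0.14 in 129 (adjusted p = 0.0103), and in B6 the fall was not called after the correction (-0.16). Esrrg rose by 0.92 ± 0.26 in B6 (adjusted p = 0.00213) and by 0.78 ± 0.26 in 129 (adjusted p = 0.0276). With Mir6236 as a covariate 0 of the 13 regulators were called with diet in B6 (2.05% of all genes rose and 2.96% fell). The difference of diet responses was then called for 0 of them as well (0.124% of all genes). In 129, 1 rose and 4 fell with that covariate (13.9% and 9.21% of all genes).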

How the data were processed

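RNA-seq libraries of mouse liver (108 with labels) were analysed from 3 tables. Per the submitters' processing notes, STAR and HOMER were used with mm10. The deposited values are quantile-normalised expression signal per transcript, made by the authors with no counts, so depth is unknown. A further 18 columns match no labelled sample and were not used, so Errg-Cre was not set against its controls.

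For each symbol the transcript with the highest mean was kept. Values were tested as log2(value + 1) for genes with a mean of at least 10, with limma 3.58.1 in R 4.3.3. Level differences averaged the 6 times with equal weight in 1 fit of all 72 wild-type libraries, and daily courses used a cosine of 24 h. Adjusted p-values are Benjamini-Hochberg over all genes tested in a table, with a threshold of 0.05. Where up to 6 genes in each direction are given in full, they have the largest differences among called genes with the same sign at all 6 times, beside the subunits of complex II, subunit c, cytochrome c genes and isoform pairs. The members and lists were chosen with earlier results of these data known. The fits were tested on simulated data (11287 genes), where 82.1% of genes raised by 1 log2 unit in B6 and 59.7% of those raised by 0.5 were called. The simulated noise was independent between genes and held no effect of time, GC content or Mir6236, so these shares may not hold for the real libraries. The GC and length correction subtracted a spline from each library, and GC content was known for 41 of the 42 genes. Alternatives were another pseudocount, no minimum, replicate block, array weights, the longest transcript, time as a factor, the GC and length correction, Mir6236 as a covariate and leaving out libraries. Median centring and leaving out ZT22 were chosen after seeing the data.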

Additional observations from a re-analysis of the deposited data

Results flagged for a closer look

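The response to diet differed between the strains in 23 genes by limma's test of the difference itself (adjusted p below 0.05 over 11287 genes). The values below are the log2 difference HFD minus chow in 129 minus that in B6. In complex II they were -0.67 for Sdhb, -0.42 for Sdhc and -0.26 for Sdhd. In complex III they were -2.12 for Uqcr11, -1.63 for Uqcr10, -0.82 for Uqcrc1 and -0.61 for Cyc1. In complex IV they were -1.44 for Cox4i1, -0.74 for Cox6b1, -0.49 for Cox6c, -0.49 for Cox7a2l, -0.37 for Cox5b, -0.30 for Cox7c and 0.44 for Cox5a. In complex V they were -1.94 for Atp5d, -1.63 for Atp5g2, -1.16 for Atp5g1, -0.78 for Atp5l, -0.72 for Atp5j2, -0.50 for Atp5a1, -0.47 for Atp5k, 0.66 for Atp5g3 and 0.48 for Atp5j. The call of Cyc1 was lost when any of 7 single libraries of B6 or 129 chow was left out. The sets hold 18 libraries each, too many for the test for a single outlying library.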

How the results depend on the processing

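Counts of called genes stayed within 1.5 times of those reported for another pseudocount, no minimum on the mean, the longest transcript and median centring. Array weights gave 9 higher with diet in 129, 20 lower in 129 on HFD, 5 with a higher diet response in 129, and 25, 26, 1, 13, 20 and 10 daily courses (B6 chow, 129 chow, 129 HFD, change in B6, change in 129, Errg-Cre). With these weights 30.1% of all tested genes passed in B6 chow, 61.8% in 129 chow and 32% in 129 HFD. The course changed with diet in 6.6% of all genes in B6 and in 37.7% in 129. Shares over all genes were not computed for the weighted level counts or for Errg-Cre. GC and length correction gave 15 lower with diet in 129 (10.9% of all genes) and 6 with a higher diet response in 129 (7.13%). It gave 3 courses in Errg-Cre. It turned Cox6a1 (-0.42), Cox8a (-0.23), Atp5o (-0.078) and Sdha (0.020) with diet in B6 and Cox6a1 (-0.19) between strains on chow. The Mir6236 covariate gave 0 higher and 1 lower with diet in B6 (2.05% and 2.96% of all genes). In 129 it gave 8 higher with diet (13.9%). Between strains it gave 2 higher and 2 lower on chow (4.97% and 7.84%) and 6 lower on HFD (12.8%). For the difference of diet responses it gave 0 higher and 0 lower (0.0797% and 0.0443%). It gave 1 course in B6 chow (8.31%), 2 in 129 chow (14.8%) and 2 in Errg-Cre. It turned Atp5mpl (0.0031), Cox6a1 (-0.077), Cox6b1 (-0.014), Cox8a (-0.013) and Cyc1 (-0.13) with diet in B6, Atp5g3 (0.16) and Atp5j (0.042) on chow, and Uqcr11 (0.069) on HFD. It also turned the difference of diet responses of Atp5d (0.47), Atp5g1 (0.30), Atp5g2 (0.051), Atp5g3 (-0.081), Cox4i1 (0.067), Cyc1 (0.42), Sdhb (0.11), Sdhc (0.038), Uqcr10 (0.056) and Uqcrc1 (0.075), and the peaks in 129 chow of Atp5d (amplitude 0.47), Uqcr11 (0.46), Cox4i1 (0.31) and Atp5g2 (0.27). The cause was not tested. Time as a factor gave 18, 5 and 10 courses in B6 chow, B6 HFD and Errg-Cre, and without the 3 wild-type libraries with the largest share of tested genes under a value of 1 (3.25% to 14.8%) 1 course changed with diet in 129. Without ZT22, a choice made after seeing the data, 1 gene was higher with diet in 129 and 2 were lower in 129 on chow. Leaving out a replicate number gave 0 to 2 higher and 4 to 7 lower with diet in 129, 18 to 23 higher and 6 to 8 lower in B6, 14 to 20 higher and 4 to 5 lower on chow, 2 to 3 higher and 3 to 12 lower on HFD, 6 to 20 with a lower diet response in 129, 3 to 15 courses in 129 chow and 0 to 0 in Errg-Cre. The 18 and the 14 came without replicate 2, where 21.9% and 17.7% of all genes were higher. Shares over all genes were not computed without replicate 1 or replicate 3. Leaving out 1 library gave 2 to 4 higher with diet in 129 and 17 to 24 with a lower diet response in 129. The replicate number as a block gave 3 courses in Errg-Cre and 7 lower with diet in 129, and kept the other counts of levels. Deviations of libraries with the same number correlated with a median of 0.00494 (828 pairs, from -0.668 to 0.695), and 31 of 72 libraries correlated best with their own number. These values do not settle whether the numbers pair the samples or mark a shared batch. No counts were used, so what depth limits is unknown.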
